A study of Mus musculus with 2 samples.

Results

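The NF-kappaB pathway and feedback genes described here are 10 genes, *Nfkb1*, *Nfkb2*, *Rela*, *Relb*, *Nfkbia*, *Nfkbiz*, *Tnfaip3*, *Birc3*, *Icam1* and *Bcl3*. They were taken by symbol from the 27998 gene rows of a single-cell count table, and all 10 symbols were found. The series holds 2 10X Chromium libraries of mammary gland cells from adult FVB/NJ mice, an inbred strain, with 8 mice in the series and no treatment. One library is total epithelium (Lin-CD24+, 3302 cells) and the other is sorted basal cells (Lin-CD29hiCD24+, 4771 cells), after a Lin gate had taken out blood and vascular cells by their surface CD45, TER119 or CD31. In a Chromium library each droplet tags the RNA of a cell with a barcode and each molecule with a random tag, so that a count is an RNA molecule. The cells of several mice were pooled before capture, so each condition is 1 library, cells are not replicates, and no p-value is given.

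The cells of the total epithelium were split into the 3 lineages of the mammary epithelium by genes other than the 10 members. Basal cells, the contractile outer layer, had 10 or more counts of *Krt5*, *Krt14* and *Acta2* together (1280 cells). Mature luminal (ML) cells, which carry hormone receptors, had 10 or more counts of *Prlr*, *Stc2* and *Gpx3* (1133 cells). Luminal progenitor (LP) cells were the remaining cells with 3 or more counts of *Krt8*, *Krt18* and *Krt19* (766 cells). A further 26 cells met both the basal and the ML rule and were set apart, and 97 cells met none. The median count per cell was 1820 in basal cells, 2483.5 in LP cells and 3403 in ML cells. Levels are therefore given as counts per 1000000 (CPM) of the counts summed over a class, and shares of cells as the share left when each cell is thinned to 1000 counts. Intervals are 95% intervals for counting error only.

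Markers that the split did not use followed the class names. Summed over 7 basal markers the level was 16413 CPM in basal cells, 129 in LP cells and 85.2 in ML cells. The 6 LP markers summed to 399, 10339 and 996 CPM, and the 7 ML markers to 76.2, 766 and 7627 CPM, in the same order. Of 7 immune markers, *Ptprc*, *Cd52*, *Tyrobp* and *Cd3e* had 0 counts in every class, and the list summed to 45.6 CPM in basal cells, 4.17 in LP cells and 1.69 in ML cells. *Cd74*, an antigen presentation gene, gave most of this, with 109, 8 and 7 counts. The 5 endothelial markers summed to 4.36 to 6.02 CPM. The 6 fibroblast markers summed to 358 CPM in basal cells, 83.4 in LP cells and 1419 in ML cells, of which *Dcn* alone gave 345, 76.4 and 1281. The 14 immediate-early and stress genes summed to 41422 CPM in basal cells, 28034 in LP cells and 26709 in ML cells. The part of these genes in the results below was not tested.

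NF-kappaB is a family of paired transcription factors, built from RelA, RelB, c-Rel, p50 (from *Nfkb1*) and p52 (from *Nfkb2*), that is held in the cytoplasm by IkappaB proteins until a cytokine or microbial receptor starts the IKK kinase and IkappaB is destroyed. The factor then switches on inflammatory and survival genes and also its own inhibitors, among them *Nfkbia* and *Tnfaip3*, which close the loop. In the mammary gland the pathway is best known downstream of RANKL, a cytokine of hormone-sensing cells, and its receptor RANK.

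The short DNA sequence that the factor binds, named kappaB, was searched for in the promoters of the members. RefSeq promoter windows on GRCm38.p6, from 250 bases before a start site to 50 bases after it, were held for 7 of the 10 members. The kappaB consensus was found on either strand in windows of 4 members, *Nfkb2*, *Nfkbia*, *Tnfaip3* and *Bcl3*, and in none of those of *Rela*, *Birc3* and *Icam1*. The match had to be exact: GGG, then A or G, any base, A or T, C or T, C or T, and CC. Sites that depart from it by a base were not counted, so a window without a match may still hold a kappaB site. Of all 32851 RefSeq windows, 4.51% held a match to the consensus. Members can have several windows and the search did not require a bound site, so a match is a description of the sequence. The 250 bases before the start of *Nfkbia* (chr12:55492648-55492897, minus strand) and of *Icam1* (chr9:21015690-21015939, plus strand) are shown because the results below turn on these members. Stretches of 30 bases around the match nearest the start site of the first window are shown for the other matched members. The same is shown for the chemokine genes *Cxcl1* and *Cxcl2*, whose levels are given below. Capitals mark the match to the consensus, which in *Nfkbia* starts 29 bases before the start site. *Nfkb2* and *Tnfaip3* held further matches outside the stretches shown, and the match of *Bcl3* lies past its start site.
Nfkbia: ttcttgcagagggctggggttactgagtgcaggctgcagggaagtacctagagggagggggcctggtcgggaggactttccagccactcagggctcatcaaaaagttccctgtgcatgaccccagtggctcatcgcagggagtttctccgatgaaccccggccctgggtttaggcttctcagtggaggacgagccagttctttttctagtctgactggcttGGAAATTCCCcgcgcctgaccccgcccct
Icam1: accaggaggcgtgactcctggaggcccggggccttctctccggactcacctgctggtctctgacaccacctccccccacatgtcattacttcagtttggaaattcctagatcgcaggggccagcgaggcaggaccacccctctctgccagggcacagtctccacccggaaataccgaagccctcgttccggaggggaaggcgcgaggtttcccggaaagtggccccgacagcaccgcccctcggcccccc
Nfkb2: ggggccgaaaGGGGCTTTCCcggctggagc
Tnfaip3: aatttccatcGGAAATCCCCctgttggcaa
Bcl3: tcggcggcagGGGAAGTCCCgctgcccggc
Cxcl1: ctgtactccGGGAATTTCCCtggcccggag
Cxcl2: ctgagctcaGGGAATTTCCCtggtccccgg
The 30-base stretches lie at chr19:46304716-46304745 (*Nfkb2*, plus), chr10:19015403-19015432 (*Tnfaip3*, minus), chr7:19822734-19822763 (*Bcl3*, minus), chr5:90891165-90891194 (*Cxcl1*, plus) and chr5:90903793-90903822 (*Cxcl2*, plus). *Cxcl1* and *Cxcl2* shared the same capitals.

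LP cells had the highest level of 8 of the 10 members, basal cells that of *Icam1* and ML cells that of *Bcl3*. Of the 8, *Nfkb2* was not told apart between LP and ML cells. LP cells were above basal cells in 8 members, and in 3377 of 8653 genes with 30 or more counts. They were above ML cells in 9 members, and in 3070 of 8950 such genes. Relative to basal cells, 5 members were at least 2-fold higher in LP cells (*Nfkb2*, *Nfkbia*, *Nfkbiz*, *Tnfaip3* and *Birc3*), where 11.6% of the 8653 genes with 30 or more counts in the 2 classes were. With class thresholds of 20 counts *Nfkb2* and *Nfkbiz* were below 2-fold, at log2 ratios of 0.99 and 0.86. *Icam1* alone was at least 2-fold lower, where 21.1% of all genes were. Relative to ML cells, 4 members were at least 2-fold higher in LP cells (*Nfkb1*, *Nfkbia*, *Nfkbiz* and *Tnfaip3*), against 9.75% of 8950 genes, and 0 were lower, against 17%. Between ML and basal cells 0 members were higher by 2-fold, against 19.3% of 9521 genes, and *Icam1* was lower, against 19.1%. The median log2 ratio of the 10 members was 0.88 for LP over basal, 0.74 for LP over ML and 0.20 for ML over basal, where the medians of all genes were -0.22, -0.29 and 0.05. The first and second of these contrasts share the LP cells.

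**Figure D1:**
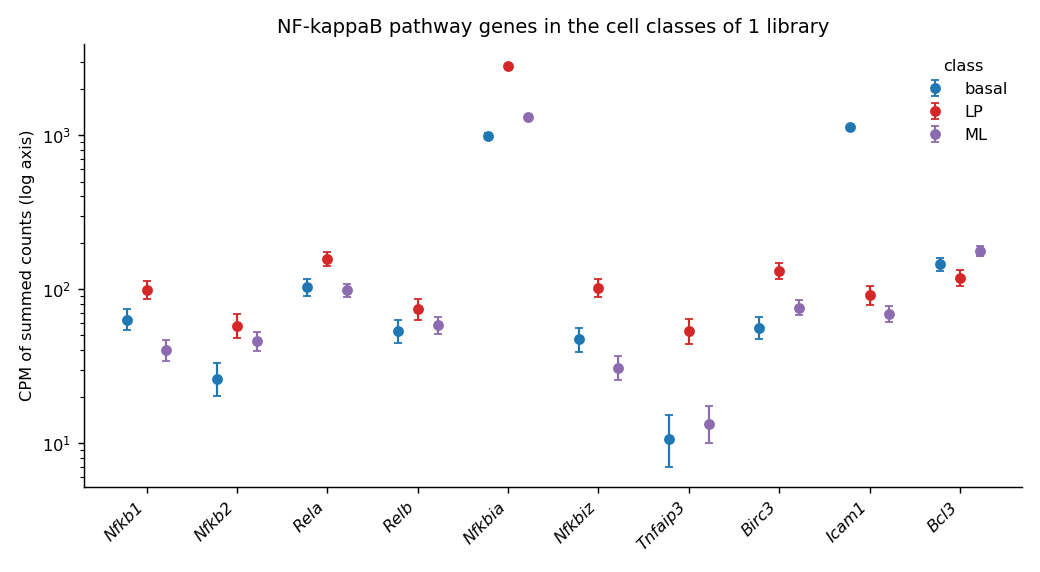
Level of each of the 10 members in basal, LP and ML cells of the total epithelial library, as CPM of summed counts on a log axis. Bars are exact Poisson 95% intervals, drawn also where they are shorter than the point. LP cells have the highest point for 8 members, while *Icam1* is at 1123 CPM in basal cells and under 100 CPM in both luminal classes.

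Each of the 4 Rel subunit genes among the members had its highest level in LP cells, for *Nfkb2* within counting error of ML cells. The gene of the remaining subunit, c-Rel, is not a member and did not differ between LP and basal cells beyond counting error. *Nfkb1*, the gene of p105 and p50, lies at chr3:135584655-135691547 and had 63.4 CPM in basal cells, 99.1 in LP cells and 40.2 in ML cells (168, 214 and 166 counts). It was 1.56-fold higher in LP than in basal cells (1.27 to 1.93) and 2.47-fold higher than in ML cells (2.01 to 3.04), and basal cells were 1.58-fold above ML cells (1.27 to 1.97). All 3 classes were thus apart beyond counting error. *Rela*, the gene of the p65 subunit (chr19:5637483-5648130), had 103, 157 and 98.5 CPM in basal, LP and ML cells. It was 1.53-fold higher in LP than in basal cells (1.30 to 1.80) and 1.59-fold higher than in ML cells (1.38 to 1.85). ML and basal cells had a *Rela* ratio of 0.960 with an interval from 0.821 to 1.12, so they were not told apart at this depth.

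*Nfkb2* and *Relb* belong to the non-canonical branch, in which p100 is processed to p52 and pairs with RelB. *Nfkb2* (chr19:46304320-46312385) had 26.0 CPM in basal cells, 57.4 in LP cells and 46.0 in ML cells. It was 2.21-fold higher in LP than in basal cells (1.63 to 3.01) and 1.77-fold higher in ML than in basal cells (1.33 to 2.36). LP and ML cells did not differ beyond counting error in *Nfkb2* (ratio 1.25, 0.988 to 1.58). *Relb* (chr7:19606217-19629438) had 53.2, 74.1 and 58.1 CPM, and LP cells were 1.39-fold above basal (1.10 to 1.76) and 1.28-fold above ML cells (1.04 to 1.57). Its ML over basal ratio was 1.09 (0.883 to 1.35). *Nfkb2* and *Psd* overlap on opposite strands, as *Bcl3* and *Icam1* do with predicted genes, and *Nfkb1* overlaps a predicted gene on its own strand.

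*Nfkbia*, the gene of IkappaBalpha (chr12:55489410-55492647), which binds the dimers and is remade after every round of activation, stood out in LP cells. Its level was 989.9 CPM in basal cells (952 to 1029), 2826 in LP cells (2756 to 2898) and 1323 in ML cells (1288 to 1359). LP cells were 2.86-fold above basal cells (2.73 to 2.99) and 2.14-fold above ML cells (2.06 to 2.22), and ML cells were 1.34-fold above basal cells (1.28 to 1.40). With cells thinned to 1000 counts, 72.5% of LP cells held a count, as did 50.2% of basal and 55.4% of ML cells; without thinning the shares were 83.9%, 64.7% and 77.7%. The LP over ML value rests on where the classes are cut, because raising the class thresholds to 20 counts gave a log2 ratio of 0.89, below 2-fold.

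The nuclear IkappaB proteins went different ways. *Nfkbiz* (chr16:55811375-55838899) encodes IkappaBzeta, which helps p50 to switch on secondary response genes. It had 47.1 CPM in basal cells, 102 in LP cells and 30.7 in ML cells, and was 2.17-fold higher in LP than in basal (1.74 to 2.73) and 3.33-fold higher than in ML cells (2.67 to 4.18). *Bcl3* (chr7:19808462-19822770), a nuclear IkappaB that acts with p50 and p52 dimers, had the reverse order, with 145 CPM in basal cells, 118 in LP cells and 176 in ML cells. LP cells had 0.814 of the basal level (0.692 to 0.956) and 0.672 of the ML level (0.580 to 0.776), and ML cells were 1.21-fold above basal cells (1.07 to 1.37). Thinned to 1000 counts, *Bcl3* was counted in 12.5% of basal cells, 10.4% of LP cells and 14.3% of ML cells.

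Both ubiquitin enzymes of the set were highest in LP cells. *Tnfaip3* (chr10:19000910-19015657) encodes A20, an enzyme that edits ubiquitin chains and shuts the signal off. It had 10.6 CPM in basal cells, 53.3 in LP cells and 13.3 in ML cells, from 28, 115 and 55 counts. LP cells were 5.05-fold above basal (3.31 to 7.92) and 4.0-fold above ML cells (2.88 to 5.63), while ML and basal cells were not told apart (1.26, 0.786 to 2.06). It was the member with the largest LP ratio in both contrasts, and the one with the fewest counts. *Birc3* (chr9:7848699-7873186) encodes cIAP2, a ubiquitin ligase of the TNF receptor complex that protects against cell death. Its levels were 55.8, 132 and 75.7 CPM, 2.36-fold higher in LP than in basal (1.93 to 2.90) and 1.74-fold higher than in ML cells (1.47 to 2.05).

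*Icam1* (chr9:21015985-21028817), the adhesion molecule that binds leukocyte integrins and a common NF-kappaB target, had the opposite pattern. Its level was 1123 CPM in basal cells (1083 to 1164), 91.7 in LP cells (79.4 to 105) and 69.0 in ML cells (61.2 to 77.4). Basal cells were 12.2-fold above LP (10.6 to 14.2) and 16.3-fold above ML cells (14.4 to 18.4), and LP cells were 1.33-fold above ML cells (1.10 to 1.60). Thinned to 1000 counts, 62.0% of basal cells, 7.80% of LP and 6.01% of ML cells held a count. The LP level was 8.17% and the ML level 6.14% of the basal level. By comparison the 7 basal markers reached 0.260% (*Mylk*) to 8.64% (*Oxtr*) of their basal level in LP cells, with the remaining 6 at or under 1.08%, and 0.198% (*Myl9*) to 2.07% (*Sparc*) in ML cells. The *Icam1* share in LP cells was thus below that of *Oxtr* and above those of the other 6, and its share in ML cells was above all 7; the part of free RNA was not tested. *Mylk*, the marker with the lowest LP share of the 7, was counted in 0.392% of LP cells and 54.6% of basal cells without thinning. These shares are at the median depths given above. The 7 basal markers had from 1 (*Trp63*) to 90 (*Cxcl14*) counts in LP cells.

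**Figure D2:**
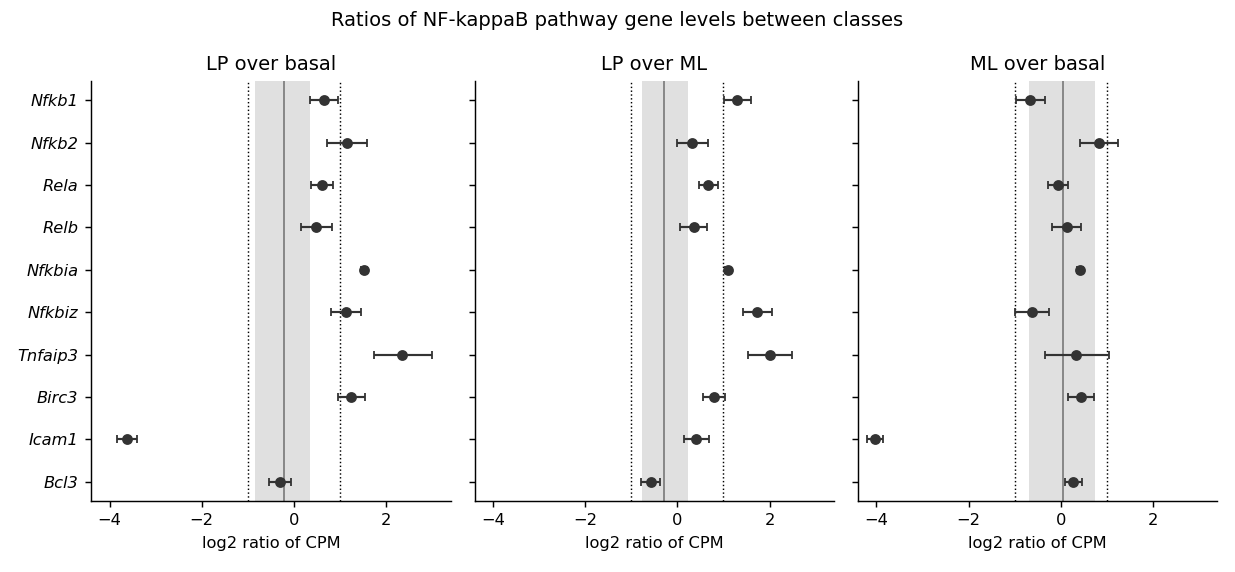
Log2 ratio of CPM for each member in LP over basal, LP over ML and ML over basal cells, with exact 95% intervals for counting error. The grey line is the median and the grey band the quartiles of all genes with 30 or more counts, and the dotted lines mark 2-fold. *Icam1* lies at -3.61 and -4.02 in the contrasts with basal cells, and *Tnfaip3* at 2.34 and 2.0 in the LP contrasts.

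Levels of cells near the class limits are given for *Icam1* and *Nfkbia*. The 39 basal cells with 10 to 14 basal marker counts had 797 CPM of *Icam1*, and the 36 cells with 5 to 9 that missed the rule had 482 (27 counts). The 120 ML cells with 10 to 14 ML marker counts had 1355 CPM of *Nfkbia*, close to the 1350 CPM of the 83 LP cells with 5 to 9 such counts. The 13 LP cells with 3 to 5 keratin counts had 479 CPM of *Icam1* from 12 counts. In 32 ML cells with 3 or more counts of the LP genes *Elf5*, *Kit* and *Aldh1a3*, *Nfkbia* was at 2347 CPM, compared with 1210 CPM in the 1024 ML cells with 0 such counts. The median depth of those 32 cells was 6068 counts, against 3274, and whether they are doublets was not tested.

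The counts of *Nfkbia* were spread unevenly over the cells of each class. After thinning, 24.4% of LP cells (177 of 725) held 5 or more *Nfkbia* counts, and 26.2% held 0. The same share was 3.09% in basal and 5.40% in ML cells. The highest thinned count in a cell was 28 in LP, 9 in basal and 11 in ML cells, and the variance was 4.30, 1.94 and 2.32 times the mean. The means differed too, at 3.06, 0.985 and 1.26 counts in the same order. The tenth of cells with the most held 36.9% of the *Nfkbia* counts in LP, 42.5% in basal and 42.2% in ML cells. By that share LP cells were not the most uneven class. *Icam1* was more even in basal cells, where the variance was 1.39 times the mean, 30% of cells held 1 count and 1.79% held 5 or more. A Poisson variable has a variance equal to its mean.

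**Figure D3:**
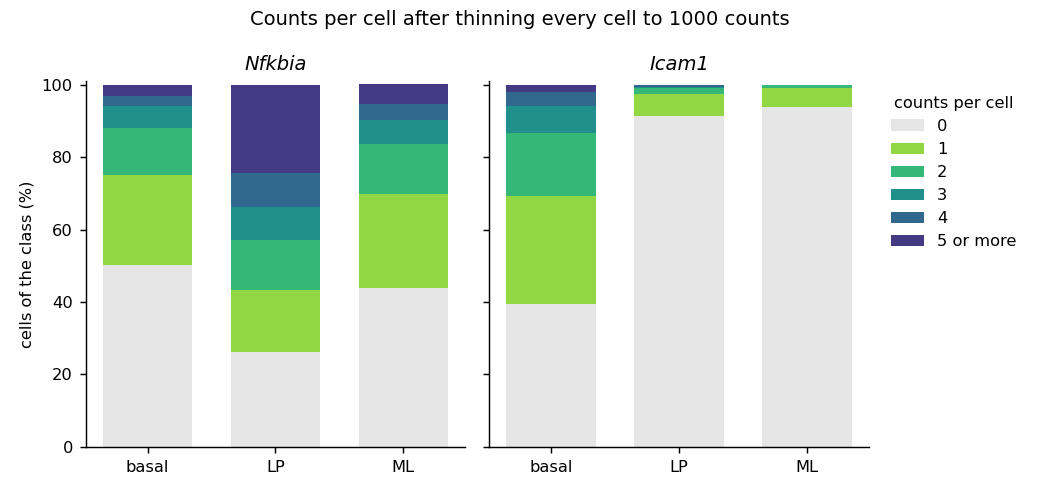
Share of the cells of each class by the number of *Nfkbia* and *Icam1* counts they hold, after thinning every cell to 1000 counts (1228 basal, 725 LP and 1111 ML cells). The dark segment of 5 or more *Nfkbia* counts covers 24.4% of LP cells, and *Icam1* is at 0 in 91.4% of LP and 93.9% of ML cells.

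Few cells held counts of many members. Thinned to 1000 counts, a cell held on average 1.56 of the 10 members in basal cells, 1.5 in LP cells and 1.07 in ML cells. Without thinning, 5 or more members were counted in 53 basal (4.14%), 100 LP (13.1%) and 84 ML cells (7.41%). None were counted in 59 (4.61%), 63 (8.22%) and 114 (10.1%) cells in the same order. These shares are at the unequal median depths given above. Over the 45 pairs of members the median Pearson correlation across thinned LP cells was 0.038, with *Nfkbia* and *Nfkbiz* at 0.181 and *Nfkbia* and *Tnfaip3* at 0.163. In ML cells the median was 0.023 and the highest pair, *Nfkbiz* and *Tnfaip3*, was at 0.149, and in basal cells the median was 0.011 and the highest 0.086. These values come from sparse counts of cells that share a library, and correlations this weak are not read as a relation.

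Among the 1254 genes counted in 10% or more of the 725 thinned LP cells, those most like *Nfkbia* were *Cxcl1* (r = 0.411), *Mfge8* (0.303), *Ifrd1* (0.281), *Cxcl2* (0.279) and *Junb* (0.277). *Cxcl1* and *Cxcl2* encode neutrophil chemokines, *Mfge8* a milk fat globule protein, and *Junb* an AP-1 factor. *Csf3* was the sixth, at 0.248. In basal cells the leading genes were the immediate-early genes *Fos* (0.210) and *Egr1* (0.209), followed by *Junb* (0.181), *Ier2* (0.173) and *Pnrc1* (0.171), and *Cxcl1* was at 0.110. In ML cells they included *Atf3* (0.256), *Klf2* (0.252), *Fosb* (0.245) and *Junb* (0.233). The immediate-early genes named for basal and ML cells were also positive in LP cells. There *Fosb* was at 0.224, *Atf3* at 0.195, *Fos* at 0.163, *Ier2* at 0.161 and *Egr1* at 0.136. The values are over cells that share library and dissociation, and differences between classes in these correlations were not tested.

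The genes named here of ligands that start the pathway differed in the class where they were highest. *Tnf*, the gene of tumour necrosis factor, had 79.7 CPM in LP, 3.77 in basal and 9.68 in ML cells (172, 10 and 40 counts), 21.1-fold higher in LP than in basal (11.2 to 44.9) and 8.23-fold higher than in ML cells (5.81 to 11.9). *Tnfsf11*, the gene of RANKL, had 70 counts in ML, 5 in LP and 2 in basal cells, a ratio of 7.31 of ML over LP (2.99 to 23.2). *Il33*, which encodes an alarmin of the IL-1 family, had 388 counts in ML, 38 in LP and 3 in basal cells. *Tnfsf12*, the gene of TWEAK, was highest in basal cells at 38.8 CPM, compared with 8.34 in LP and 7.50 in ML cells. Of the 11 ligand genes, 3 or 4 had enough counts for a contrast, and *Il1a* and *Il1b* had 0 counts in the 3 classes.

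Among 15 receptor genes, 8 had enough counts for LP over basal, of which 1 was at least 2-fold higher and 1 lower, beside 11.6% and 21.1% of all genes. Between LP and ML cells 4 of 10 were higher and 1 lower, beside 9.75% and 17%. Between ML and basal cells 3 of 9 were higher and 2 lower, beside 19.3% and 19.1%. *Cd14*, the lipopolysaccharide co-receptor and an LP marker, had 2667 CPM in LP, 114 in basal and 277 in ML cells. *Tlr2*, a receptor of bacterial lipoproteins, had 26.9 CPM in LP and 24.5 in basal cells, a ratio of 1.10 (0.756 to 1.59), and 4.60 CPM in ML cells. *Tnfrsf1a*, the main receptor of TNF, was 2.14-fold higher in basal than in LP cells (1.83 to 2.51), at 215 and 100.5 CPM, with 117 CPM in ML cells. *Tnfrsf11a*, the gene of RANK, had 61 counts in basal cells, 28 in LP cells and 8 in ML cells, which is 23.0, 13.0 and 1.94 CPM. It was lowest where *Tnfsf11* was highest, at 6.70-fold more in LP than in ML cells (2.98 to 17) and 11.9-fold more in basal than in ML cells (5.67 to 28.8). *Il1r1*, the IL-1 receptor, had 26 counts in ML, 5 in basal and 2 in LP cells.

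Among 16 kinase genes, 12 had enough counts for LP over basal, of which 3 were at least 2-fold higher and 2 lower, beside 11.6% and 21.1% of all genes. *Irak2*, a kinase of Toll-like receptor signalling, was 3.15-fold higher in LP than in basal cells (2.04 to 4.98). *Ripk1* and *Ripk2*, kinases that recruit IKK below TNF receptor and NOD receptors, were 3.96-fold (2.97 to 5.35) and 3.0-fold (1.70 to 5.59) higher in basal than in LP cells. *Ikbkg*, the gene of the IKK subunit NEMO, had 23.2 CPM in ML, 10.7 in LP and 4.53 in basal cells. *Ikbke*, an IKK-related kinase, had 31 counts in ML and 5 in LP cells, and *Tab1*, an activator of the TAK1 kinase, had 58 in ML and 11 in basal cells. The median log2 ratio of the kinases was 0.01 for LP over basal, beside -0.22 for all genes.

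Of 20 adaptor and ubiquitin enzyme genes, 13 could be compared between LP and basal cells, and 3 were higher and 3 lower, beside the same 11.6% and 21.1% of all genes. *Traf5*, an adaptor of TNF receptor family members, had 59.6 CPM in basal cells, 4.17 in LP cells and 1.21 in ML cells, 14.3-fold more in basal than in LP cells (7.34 to 31.8). *Traf1* had 27 counts in LP, 7 in basal and 17 in ML cells, and *Traf6* had 27, 13 and 20. *Traf2*, which brings cIAP proteins to the TNF receptor, was 2.61-fold higher in LP (1.83 to 3.78) and 2.54-fold higher in ML (1.84 to 3.58) than in basal cells. *Fadd*, an adaptor of death receptors, had 34 counts in ML and 6 in basal cells. *Sharpin*, a subunit of the linear ubiquitin ligase, was 2.57-fold higher in ML than in LP cells (1.79 to 3.78).

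Of 12 further negative regulators, 0 were at least 2-fold lower in LP than in basal or ML cells, beside 21.1% and 17% of all genes. In both contrasts 1 was at least 2-fold higher in LP cells, beside 11.6% and 9.75% of all genes. This was *Zc3h12a*, the gene of Regnase-1, an RNase that cuts cytokine mRNA. It had 220.1 CPM in LP, 40.0 in basal and 37.7 in ML cells, 5.51-fold (4.45 to 6.86) and 5.83-fold (4.86 to 7.03) higher in LP cells. *Zfand5*, a zinc finger protein related to A20, was 2.45-fold higher in basal than in ML cells (2.29 to 2.63). Of 5 other Rel and IkappaB genes, *Nfkbil1* was 2.10-fold higher in LP than in basal cells (1.56 to 2.83), *Rel*, the gene of c-Rel, was 2.15-fold higher in LP than in ML cells (1.31 to 3.54), and *Nfkbid*, the gene of IkappaBNS, had 21 counts in LP, 10 in basal and 19 in ML cells. *Rel* did not differ between LP and basal cells beyond counting error (0.988, 0.623 to 1.56).

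Target genes of the pathway outside the 10 members included genes that were highest in LP and genes that were highest in basal cells. Of 28, 21 could be compared between LP and basal cells, where 8 were at least 2-fold higher and 6 lower, beside 11.6% and 21.1% of all genes, with a median log2 ratio of 0.25. Between LP and ML cells 11 of 20 were higher and 1 lower, beside 9.75% and 17% of all genes (median 1.61), and between ML and basal cells 3 were higher and 10 lower, beside 19.3% and 19.1% (median -0.78). The 5 targets named next, all highest in LP cells, encode secreted proteins. *Cxcl2* had 1818 CPM in LP, 62.6 in basal and 176 in ML cells, and *Csf3*, the gene of the granulocyte factor G-CSF, had 927, 29.0 and 129. *Cxcl1* had 1986, 356 and 276 CPM, and *Lcn2*, the gene of an iron-binding defence protein, had 5311, 1807 and 540. *Saa1*, a serum amyloid gene, had 28 counts in LP, 0 in basal and 2 in ML cells. Its LP and basal counts together were too few for a contrast, so no LP over basal ratio is given.

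These LP chemokine counts came from a minority of cells. After thinning, *Cxcl2* was counted in 22.5% of LP cells, and the tenth of cells with the most held 84.4% of its counts. The corresponding shares of counts were 82.1% for *Csf3*, 56.8% for *Cxcl1* and 36.9% for *Nfkbia*. The ML levels were 9.70% (*Cxcl2*), 13.9% (*Csf3*) and 12.1% (*Tnf*) of the LP level, and the LP markers *Csn3* and *Wfdc18* had 9.31% and 8.28% of their LP level in ML cells. Whether the counts in ML cells are expression or free RNA was not tested.

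The 4 targets named next were highest in basal cells. *Vcam1*, an adhesion molecule like *Icam1*, had 92.0 CPM in basal cells, 5.10 in LP cells and 1.45 in ML cells, 18.1-fold higher in basal than in LP cells (9.91 to 36.6). *Ccl2*, a monocyte chemokine gene, had 134 CPM in basal cells, 7.88 in LP cells and 16.7 in ML cells. *Il6*, an inflammatory cytokine gene, had 29 counts in basal cells, 1 in LP cells and 9 in ML cells. *Gadd45b*, a stress gene that limits JNK signalling, had 652 CPM in basal cells, 317 in LP cells and 106 in ML cells. The RefSeq windows of 11 of the 19 target genes that had one held the kappaB consensus, including those of *Cxcl1*, *Cxcl2* and *Il6*. The target list was drawn up as known NF-kappaB targets with earlier results of these data in view, so it is not independent evidence of activity.

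**Figure D4:**
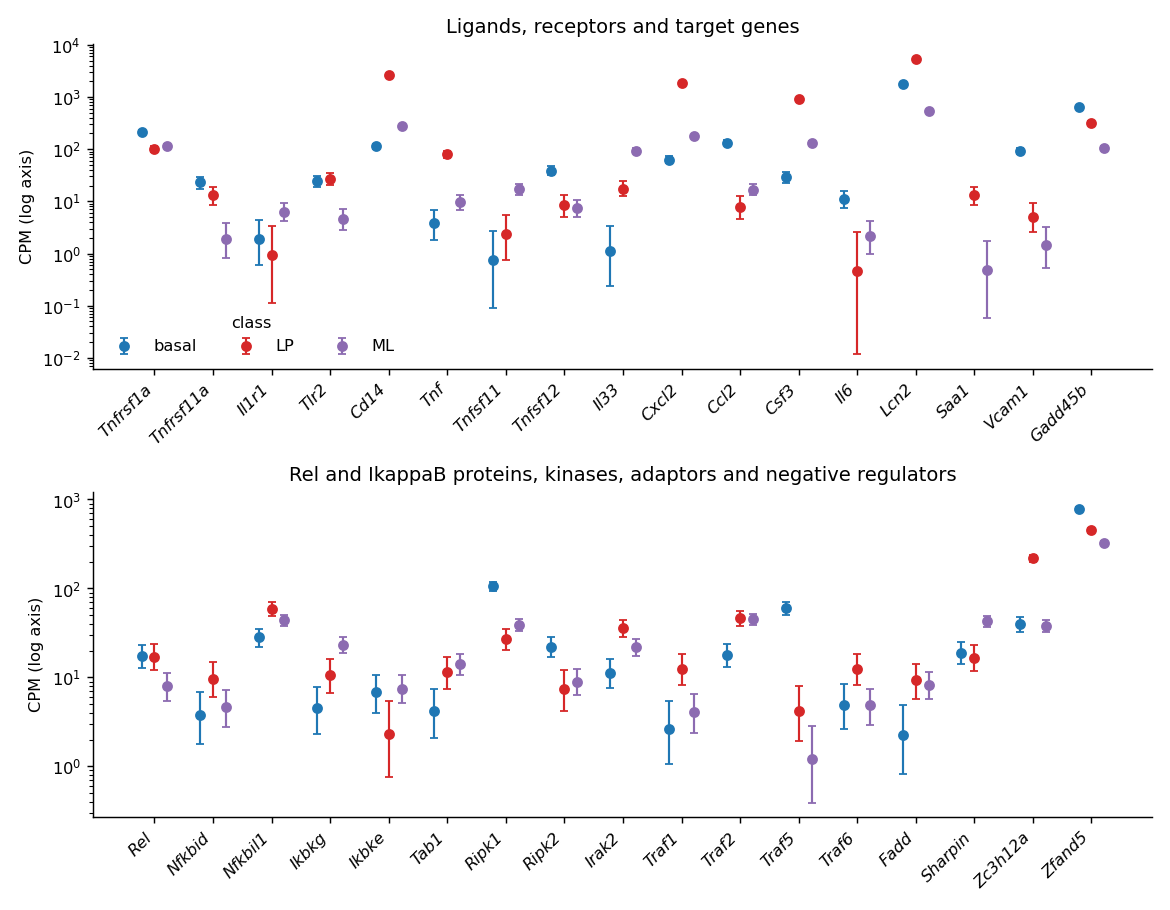
CPM on a log axis of the other named pathway genes in basal, LP and ML cells, with exact Poisson 95% intervals; ligands, receptors and targets are in the upper panel and the signalling proteins in the lower. *Tnf*, *Cd14*, *Cxcl2* and *Csf3* are highest in LP cells, *Vcam1*, *Ccl2* and *Traf5* in basal cells and *Tnfsf11* and *Il33* in ML cells. The basal value of *Saa1* is not drawn because its count was 0.

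The sorted basal library gave a second set of basal cells, at a median depth of 487 counts per cell and 2488704 counts in all. *Icam1* was again counted in most of them, at 2744 CPM over all cells and 2781 CPM in the 1757 cells that met the basal rule, compared with 1123 CPM in the basal class of the total epithelium. With cells of both thinned to 400 counts, 58.1% of the sorted cells and 35.6% of the basal class held a count, over the 3177 of 4771 sorted cells that had 400 or more counts and all 1280 of the basal class. *Nfkbia* went the other way, at 493 CPM in the sorted library and 989.9 CPM in the basal class (ratio 2.01 of the basal class over the sorted library, 1.88 to 2.15), with 13.2% and 28.4% of cells at 400 counts. Relative to the sorted library 1 member was at least 2-fold higher in the basal class, against 15.8% of 9269 genes, and 5 were lower, against 28.6%. Those 5 were *Nfkb2*, *Rela*, *Nfkbiz*, *Tnfaip3* and *Icam1*, and *Rela* had 287 CPM in the sorted library and 103 in the basal class. The median log2 ratio was -1.12 for the members and -0.46 for all genes. The immediate-early and stress genes summed to 59744 CPM in the sorted library, their part was not tested, and sort, depth and library cannot be told apart with 1 library each. The libraries shared 28 cell barcodes.

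**Figure D5:**
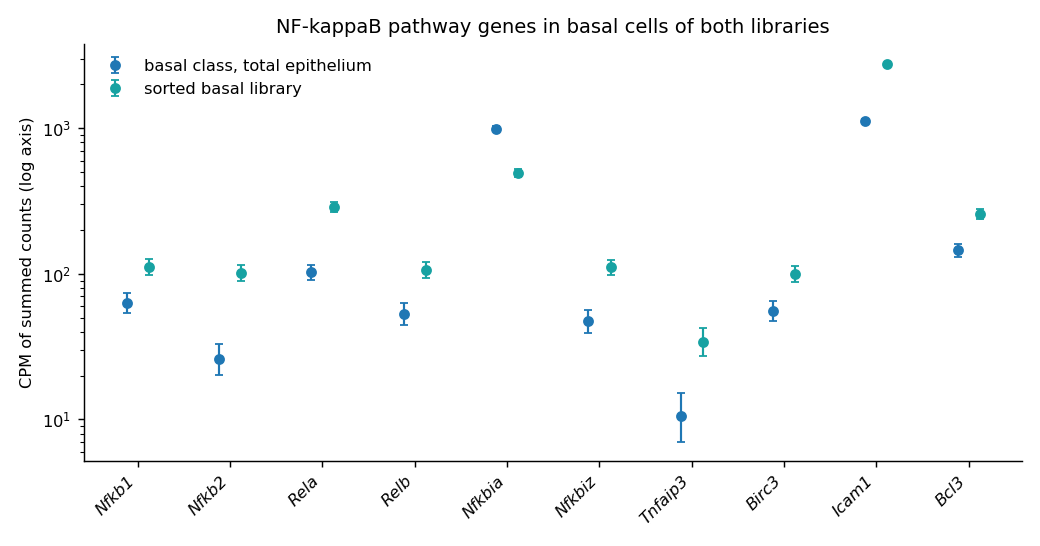
CPM on a log axis, with exact Poisson 95% intervals, of the 10 members in the basal class of the total epithelium and in all cells of the sorted basal library. *Nfkbia* is the member with the higher point in the basal class (989.9 against 493 CPM), and *Icam1* is at 1123 and 2744 CPM.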

How the data were processed

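UMI counts of 2 mammary libraries were used. The authors ran Cell Ranger (1.2.1, build mm10 in the submitters' processing notes; the study's methods name a later version) and deposited raw UMI counts per gene and cell, without normalization; the annotation release is not given in the sources used here. Such counting leaves out reads shared by near-identical genes. The members and lists were chosen with earlier results of these data known.

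All deposited cells were kept, and no doublet caller was run. Counts were summed per class and scaled to CPM. Ratios carry exact conditional binomial 95% intervals, levels exact Poisson and shares Clopper-Pearson intervals. Molecules of 1 cell are not independent, so these cover counting error only. A gene was called at 2-fold with 30 or more counts in the 2 classes. Thinned shares are expectations at 1000 counts (400 with the sorted library, where 3177 of 4771 cells were deep enough), which left out 52 basal, 41 LP and 22 ML cells; correlations used ln(1 + counts per 10000) in thinned cells. The total epithelium held 9227651 counts, 802 to 12967 per cell. Named pathway genes were, per list and contrast, the 3 largest changes past 2-fold, with *Tnfsf11* and *Tnfrsf11a*; likeness took the 5 highest r with *Nfkbia* in LP cells. *Csf3*, the basal and ML rankings and the basal rule in the sorted library were added after their values were seen, as were *Cxcl1* and *Il6* in the promoter search. Positions are from GENCODE on GRCm38 (mm10), counted from 1. Scripts used Python 3.11.15, numpy 2.4.6, scipy 1.17.1 and pandas 2.3.3 and were tested on simulated data. One gene of the ML ranking is not reported here.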

Additional observations from a re-analysis of the deposited data

How the results depend on the processing

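The direction of all 11 member ratios past 2-fold held under the 11 class, scaling, depth and marker alternatives tried, of which the marker alternative without *Dcn* was chosen after seeing the data. With class thresholds of 20 counts, 3 members instead of 5 were at least 2-fold higher in LP than in basal cells (*Nfkbia*, *Tnfaip3* and *Birc3*). With a 3-fold rule, 1 member was higher in LP than in basal cells (*Tnfaip3*) and 2 were higher than in ML cells (*Nfkbiz* and *Tnfaip3*), where 7.20% and 6.08% of all genes were. Of 78 counts of called members 75 stayed within 1.5 times the reported count, and of 330 ratios 19 moved by more than their counting error. A reversal was scored only for the 11 ratios past 2-fold, and 0 reversed. The sign changed in 2 of the 30 ratios, both ML over basal (*Relb* from -0.02 to 0.18 and *Tnfaip3* from -0.15 to 0.40 on the log2 scale). Median-of-ratios scaling moved the median of all genes for LP over basal from -0.22 to -0.03 and for LP over ML from -0.29 to -0.07, and added *Birc3* to the members higher than in ML cells. Without the filter on low counts, 17.9% of 14644 genes were higher and 30.7% lower in LP than in basal cells, 15.9% and 26.7% of 14442 in LP than in ML cells, and 24.6% and 27.3% of 15126 in ML than in basal cells. No paired analysis was possible because each group is 1 library without replicate numbers. Among the members *Tnfaip3* had the fewest counts, and several named pathway genes, *Saa1*, *Il6*, *Traf1* and *Nfkbid* among them, had under 30 counts in every class. No difference has a replicate check.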

Other observations

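The 97 cells that met no class rule held 1469 CPM of *Nfkbia* and 181 CPM of *Nfkbiz* (29 counts in 17 cells), the latter compared with 102 CPM in LP cells. *Cxcl1* was at 1400 CPM in the same cells. The fibroblast markers summed to 8489 CPM, the basal markers to 4626, the endothelial to 719, the LP to 569, the Schwann to 469, the immune to 450.1 (all *Lyz2*), the pericyte to 350.1 and the ML markers to 18.8 CPM there. In the 34 of them with 3 or more counts of *Col1a1*, *Col1a2* and *Col3a1*, *Nfkbiz* had 311 CPM and *Nfkbia* 2040 CPM, while *Icam1* had 1 count.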
